A study of Mus musculus with 24 samples.

Results

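The 83 genes described here encode the protein part of the cytosolic ribosome in B16F10-luc2 cells, a mouse melanoma line that carries a luciferase reporter. They are the rows of the deposited expression table whose symbol starts with Rpl or Rps and a digit, together with Rplp0, Rplp1, Rplp2 and Rpsa; S6 kinases and symbols marked as pseudogenes by the letters ps were left out. The rule uses names only and gave 83 of 12010 genes, 51 with an Rpl or Rplp symbol (large subunit) and 32 with an Rps symbol (small subunit). It also takes Rps19bp1, which binds Rps19 but is no subunit, the paralogues Rpl7l1, Rpl22l1, Rpl36al and Rps27l, and the processed copies Rpl32l and Rpl37rt. Messenger RNA was sequenced in 8 lines, with 3 libraries of each, from the parental cells (genotype WT), the single knockouts (KO) Mitf-KO, Tfe3-KO and Tfeb-KO, the double knockouts (DKO) of Tfeb and Tfe3, of Mitf and Tfe3 and of Mitf and Tfeb, and the triple knockout (TKO) of Mitf, Tfeb and Tfe3. Every line carries the reporter and was grown without treatment in DMEM with serum. The KO lines are clones, so that a genotype is represented by 1 clone and a difference between clones cannot be told apart from a difference between genotypes. The Mitf-KO line has a frameshift and the study notes that it may still make a little truncated MITF, and the lines without MITF and another factor were made from it. Nothing in the labels says whether the 3 libraries of a line came from separate cultures, and p-values measure only the spread between these libraries.

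Each ribosome holds 1 copy of most of these proteins, and cells make them in matched amounts with ribosomal RNA. Their mRNAs typically start with a cytosine followed by a run of pyrimidines, the terminal oligopyrimidine (TOP) motif, through which the kinase complex mTORC1 and the protein LARP1 set their translation and stability. MITF, TFEB and TFE3 are related transcription factors of lysosome, autophagy and pigment cell genes that bind the sequence CACGTG and its variants, and mTORC1 holds TFEB and TFE3 in the cytoplasm of fed cells.

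The pyrimidine run was searched for at the annotated start sites. RefSeq promoters on the build GRCm38.p6, a build other than that of the files (mm39), were matched for 63 of the 83 genes. A run of at least 5 bases of C or T that began within 5 bases of an annotated start was present in 25 of 63 (39.7%), against 25.3% of 27025 genes with a promoter. The next windows hold 15 bases before and 15 from the annotated start, with that run in capitals. The first 6 were taken from the genes that hold a run, 5 of them named below and Rpl27a for its long run. The last 3, Rpl7a, Rplp0 and Rpl36a, are named below and held no run that began so close to the start. They are therefore in lower case throughout. Rpl7a has a pyrimidine tract across its annotated start, but the tract begins further upstream and was not counted. The count of 25 leaves out tracts of that kind.
Rplp2, chr7:141447636-141447665, plus strand: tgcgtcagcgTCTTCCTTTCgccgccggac
Rps6, chr4:86857353-86857382, minus strand: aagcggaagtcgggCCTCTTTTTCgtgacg
Rpl35a, chr16:33056467-33056496, plus strand: gcggggcttgCCTTCCTCTTTCCgccatct
Rpl22l1, chr3:28805493-28805522, plus strand: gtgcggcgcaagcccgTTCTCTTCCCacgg
Rps26, chr10:128626492-128626521, minus strand: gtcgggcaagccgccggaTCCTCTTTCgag
Rpl27a, chr7:109519180-109519209, plus strand: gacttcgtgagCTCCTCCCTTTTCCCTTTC
Rpl7a, chr2:26910792-26910821, plus strand: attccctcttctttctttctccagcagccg
Rplp0, chr5:115559452-115559481, plus strand: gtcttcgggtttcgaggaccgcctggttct
Rpl36a, chrX:134585639-134585668, plus strand: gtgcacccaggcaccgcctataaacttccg

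The sequence CACGTG lay in the 300 bases from 250 before the start to 50 after it in 6 of the 63 genes (9.52%), against 8.09% of all genes, read on both strands. CATGTG or its complement was in 7 (11.1%, against 15.9%), and CCGGAAG, which ETS-family factors bind, was in 25 (39.7%, against 9.93%). These matches describe letters only. Windows of 30 bases round CACGTG, in capitals, are shown for 4 of the genes because this is the sequence that the deleted factors bind.
Rpl23, chr11:97782425-97782454, minus strand: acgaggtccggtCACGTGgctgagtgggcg
Rpl34, chr3:130730536-130730565, minus strand: cacctaacttctCACGTGacgttcctaccg
Rpl19, chr11:98026679-98026708, plus strand: tacccagaggacCACGTGaccaaacgccct
Rpl13a, chr7:45128928-45128957, minus strand: cgctccgaaaccCACGTGacatcccgcccc
Shown for their sequence and not for their values, these 4 genes had changes in MITF/TFEB DKO cells, against the parental cells, of -1.12, -0.62, -0.40 and -0.46 on the log2 scale in the order printed (limma adjusted p = 3.10e-08, 0.000273, 0.175 and 0.000628), and that of Rpl19 did not pass.

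The values are CPM, the reads of a gene scaled to a common library total and by the TMM method, from a kit that reads only the 3′ end of each mRNA, so that levels can be set side by side between genes without a correction for length. Libraries held 18300902 to 26667877 reads on genes, and no member had fewer than 151 reads in any library, and values carry counting error as well as the spread between libraries. Tfe3 mRNA had a mean of 37.1 CPM in the parental cells and 10.8 in TFE3 KO cells, Tfeb mRNA 8.80 and 2.88 in TFEB KO cells, and Mitf mRNA 776 and 1397 in MITF KO cells, whose frameshift the 3′ end does not read. The melanocyte genes Dct and Sox10 were above 632 CPM in every library. Of 11 markers of other cell types only Krt14, Pecam1 and Col1a1 were in the table, and their highest values were 19.3, 31.6 and 7.84 CPM.

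Some libraries of the same line stood apart from each other, and this touches the ribosomal protein genes. Among the 3839 other genes with a mean of at least 50 CPM, 60.0% of the variance between libraries of a line lay on 1 axis. An axis score for each library, the median of the 100 non-members that load most on it relative to the parental mean, ran from -0.83 to 0.87 on the log2 scale. It was -0.83 to -0.32 in MITF KO cells, -0.18 to 0.32 in the parental cells and -0.0094 to 0.87 in TFE3 KO cells. Gapdh, a glycolytic enzyme chosen after its values were seen, ran along it from 85.2 to 1085 CPM. Of the 83 members, 19 had a standard deviation above 0.25 between libraries of a line on the log2 scale, Rpl15, Rpl7a, Rpl35a and Rpl39 among them, as were Rps23 and Rps2, which are named here after their values were seen. A fit with the axis score as a covariate, chosen after the data were seen, is therefore given beside each count. The shares of all genes called in that fit are not given here. Larger counts of members in that fit can therefore not be read as particular to the members. For 64 members at least 50% of the 50-base words at the end of the coding sequence occur elsewhere in the genome, where ribosomal protein genes are known to have many processed copies. At the end of the transcript, where the kit reads, at least 50% of the words occur elsewhere for 34 members. How reads that fit several copies were counted is not given in the sources used here. The levels of members with shared words are uncertain to that extent. The 3′ ends of 4 members also lie over an exon of another gene on the same strand and those of 11 on the opposite strand, and whether counting used the strand is not given either.

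Mean levels differed widely between members. Rplp1, a protein of the acidic stalk, had the highest mean over all libraries with 3795 CPM, followed by Rpl37 with 3178 and Rpl32 with 3037. The lowest were Rpl32l with 13.3, Rpl15 with 31.1 and Rps6 with 58.1 CPM, and the median over members was 838 CPM. Rpl15 and Rps6 encode core subunits, and all of the 50-base words at their coding ends occur elsewhere in the genome.

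The 83 genes together took 9.36, 9.87 and 10.2% of the reads on genes in the 3 parental libraries. They took 7.76, 7.33 and 7.46% in MITF KO cells, 6.46, 7.25 and 7.09% in MITF/TFEB DKO cells and 7.28, 7.30 and 7.36% in TKO cells. TFEB/TFE3 DKO cells had 7.79, 8.27 and 7.92%. In these 4 lines every library lay below every parental library. The shares were 9.91, 10.7 and 9.27% in TFE3 KO cells, 9.05, 10.6 and 9.09% in TFEB KO cells and 10.6, 9.46 and 9.05% in MITF/TFE3 DKO cells, which overlap the parental range. A share is relative to all other mRNA, and less ribosomal protein mRNA in every cell cannot be told apart from fewer cells that hold it or from more of other mRNA.

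**Figure D1:**
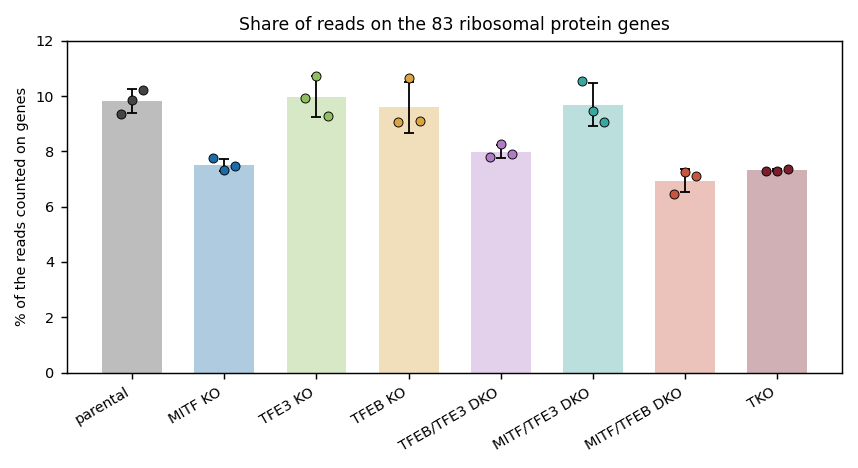
Percent of reads counted on genes that fell on the 83 ribosomal protein genes, for each cell line. Points are libraries, bars are means of 3 and error bars are standard deviations; the means were 9.82% ± 0.437 in the parental cells and 6.93% ± 0.414 in MITF/TFEB DKO cells.

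Each KO line was compared with the parental cells by limma over all 12010 genes, and a gene is said to rise or fall where its Benjamini-Hochberg adjusted p was under 0.05. Errors after log2 fold changes are standard errors, with n = 3 libraries a line. In MITF KO cells, 60 of 83 ribosomal protein genes fell and 0 rose, while 17.8% of all genes fell and 20.1% rose. Their median log2 fold change was -0.49, against 0.00059 over all genes. The small subunit (21 of 32 lower, median -0.52) and the large subunit (39 of 51 lower, median -0.47) both fell. With the axis score in the fit, 66 fell and 1 rose, with a median of -0.37. Of the 17 members with under 50% of the coding end shared, 12 fell.

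The largest falls in MITF KO cells were in Rpl7a and Rpl35a, both of the large subunit. Rpl7a was at 412, 382 and 665 CPM in parental libraries and 199, 88.6 and 215 in MITF KO cells (log2 fold change -1.59 ± 0.455, limma adjusted p = 0.00802). Rpl35a, a gene mutated in Diamond-Blackfan anaemia, was at 152, 159.8 and 246 CPM and 86.9, 56.1 and 91.4 CPM (log2 fold change -1.24 ± 0.413, limma adjusted p = 0.0216). All 3 MITF KO libraries were below the parental ones for both genes. Both genes move with the axis score, and with it in the fit the changes were -0.77 (limma adjusted p = 4.70e-07) and -0.48 (limma adjusted p = 1.19e-05). Without replicate 2 of MITF KO cells the adjusted p of limma was 0.0668 for Rpl7a and 0.0997 for Rpl35a, and the fall of Rpl35a did not pass without parental replicate 3 either. Rpl36a, Rpl32 and Rpl37 varied less between libraries of a line than Rpl7a or Rpl35a. Their log2 fold changes were -1.11, -0.79 and -0.74 (limma adjusted p = 4.33e-05, 1.17e-05 and 3.92e-05).

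**Figure D2:**
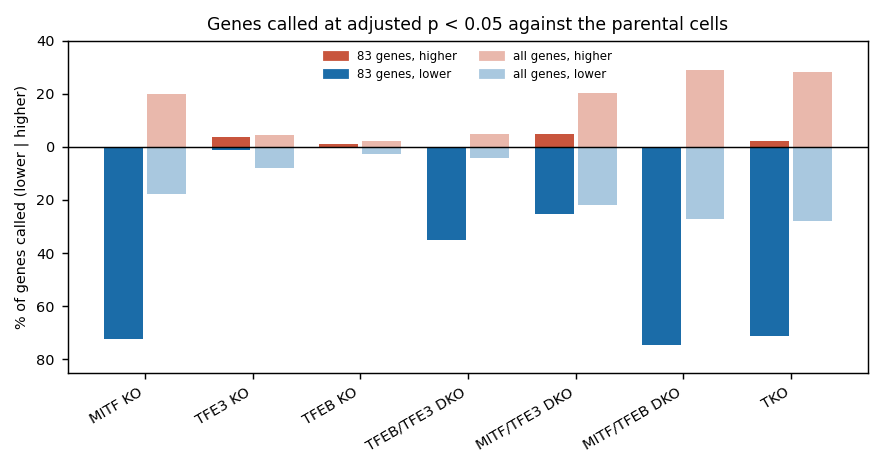
Percent of the 83 ribosomal protein genes (dark bars) and of all 12010 genes (pale bars) called higher, above 0, or lower, below 0, than the parental cells in each KO line. Ribosomal protein genes fell more often than all genes in MITF KO cells, TFEB/TFE3 DKO cells, MITF/TFEB DKO cells and TKO cells, where 59 of 83 fell.

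Loss of TFE3 or TFEB alone left most of these genes without a call. In TFE3 KO cells, 3 of 83 rose and 1 fell, against 4.50% and 7.78% of all genes, and the median was 0.053. In TFEB KO cells, 1 rose and 0 fell, against 2.25% and 2.59% of all genes, and the median was -0.048. With the axis score in the fit, 6 rose and 6 fell in TFE3 KO cells, and 2 rose and 3 fell in TFEB KO cells.

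Rpl7 rose most in TFE3 KO cells among members whose libraries did not overlap. It was at 967, 1014 and 1066 CPM in parental libraries and 1312, 1393 and 1126 in TFE3 KO cells (log2 fold change 0.33 ± 0.0824, limma adjusted p = 0.0115). Rps12, a small subunit protein, was the 1 member that fell, from 2900.2, 3304 and 3261 CPM to 2695, 2566 and 2242 CPM (log2 fold change -0.34 ± 0.0965, limma adjusted p = 0.0241). Rpl13, of the large subunit, was the 1 member that rose in TFEB KO cells, from 354, 378 and 419 CPM to 492, 606 and 529 CPM (log2 fold change 0.50 ± 0.0932, limma adjusted p = 0.00152). The libraries of the pairs of lines did not overlap for these 3 genes. The calls in TFE3 KO cells depended on single libraries: without parental replicate 1 or 2 the members that rose numbered 0 and 1, and without TFE3 KO replicate 1, 2 or 3 they numbered 8, 0 and 7. Members that fell there numbered 0 without parental replicate 2 or 3 or TFE3 KO replicate 2 or 3, and 3 without TFE3 KO replicate 1. Without TFEB KO replicate 2, 1 member fell in TFEB KO cells.

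In TFEB/TFE3 DKO cells, where MITF is present, 29 of 83 genes fell and 0 rose, against 4.09% and 4.72% of all genes. The median was -0.34, against -0.016 over all genes, and 82 of 83 had a value below 0. When the axis score was added 52 fell, and the median was -0.30. The count of 29 depended on single libraries, at 10 without parental replicate 2, 6 without parental replicate 3, 6 without TFEB/TFE3 DKO replicate 1, 35 without TFEB/TFE3 DKO replicate 2 and 16 without TFEB/TFE3 DKO replicate 3, while the median stayed between -0.38 and -0.31.

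Rpl36a and Rps27l had the largest falls in TFEB/TFE3 DKO cells among members whose libraries did not overlap. Rpl36a was at 479.6, 486 and 541 CPM in parental libraries and 219.8, 331 and 228 in DKO cells (log2 fold change -0.97 ± 0.182, limma adjusted p = 0.00126). Rps27l, a p53-induced paralogue of Rps27, was at 258, 271 and 346 CPM and 179, 228 and 166 CPM (log2 fold change -0.61 ± 0.164, limma adjusted p = 0.0211). The fall of Rps27l did not pass without parental replicate 3 or TFEB/TFE3 DKO replicate 1 or 3, with limma adjusted p = 0.136, 0.0904 and 0.114. Rps12 was at 2065, 2009.7 and 2278 CPM in the same line, each below its parental values (log2 fold change -0.57 ± 0.0965, limma adjusted p = 0.000408).

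**Figure D3:**
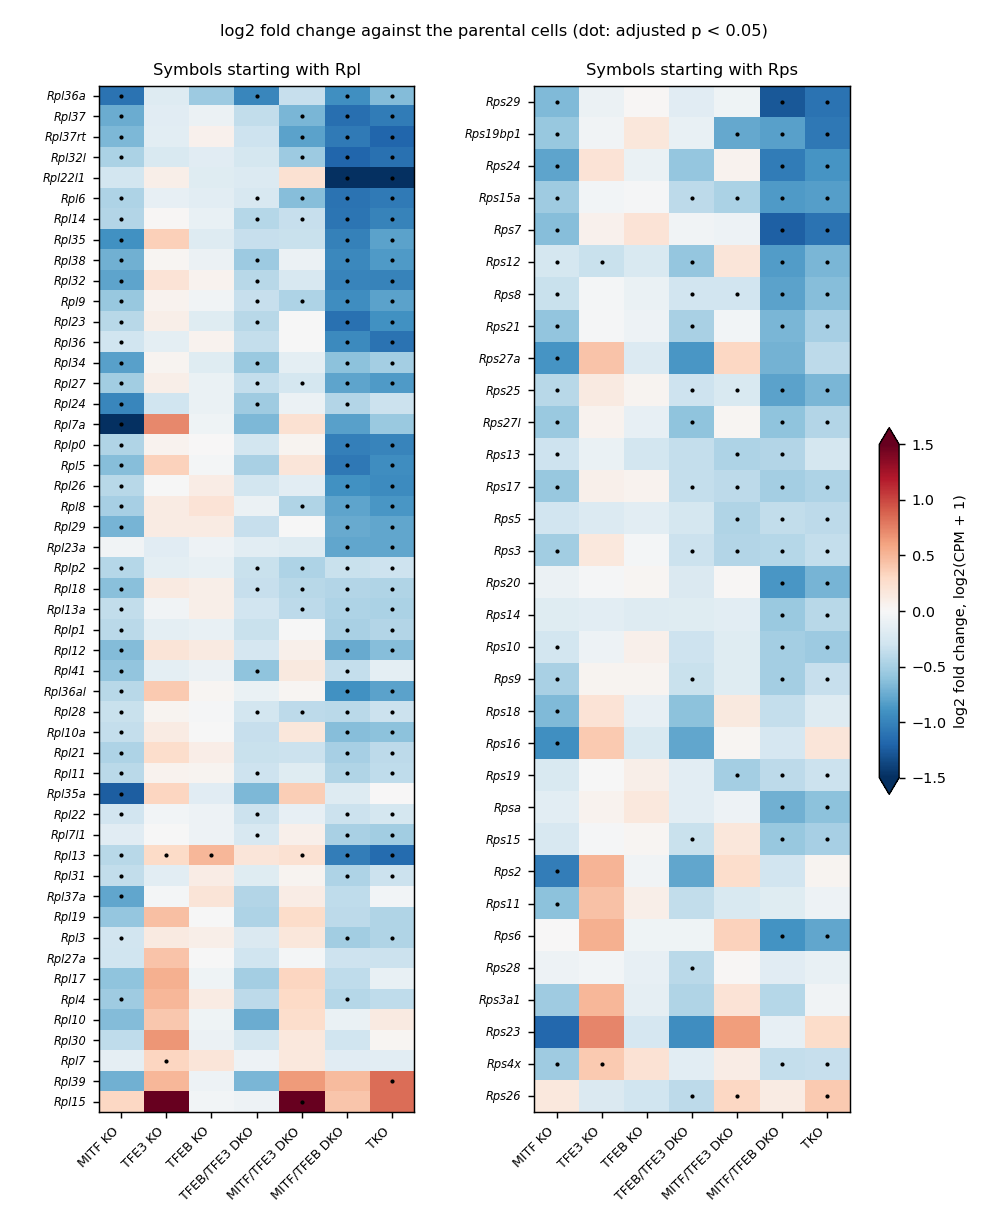
log2 fold change of 82 of the 83 genes (rows, sorted by mean) against the parental cells in the 7 KO lines (columns). Blue is lower, red is higher, colours saturate at 1.5, and a dot marks an adjusted p under 0.05; the 4 columns with a largely blue pattern are MITF KO cells, TFEB/TFE3 DKO cells, MITF/TFEB DKO cells and TKO cells.

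The counts in MITF/TFE3 DKO cells lay closer to those of all genes. Against the parental cells 21 of 83 genes fell and 4 rose, near the 21.7% and 20.2% of all genes for falls and below it for rises, and the median was -0.002. Against MITF KO cells, from which this line was made, 44 of 83 rose and 0 fell, while 18.1% of all genes rose and 19.7% fell. The median of that comparison was 0.41, or 0.21 with 39 rises and 1 fall when the axis score was in the fit. Without MITF/TFE3 DKO replicate 1, 1 member fell. The comparison shares the MITF KO libraries with that of MITF KO cells against the parental cells, and so the falls there and the rises here are not independent.

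Chromosome 7, singled out after the values were seen, held many of the falls in MITF/TFE3 DKO cells. Of the 21 falls against the parental cells, 10 were among the 14 members on chromosome 7, whose median was -0.41. The 877 other genes of that chromosome had a median of -0.26, and the share of them that fell is not given. Chromosomes 5 and 15 were similar, with falls in 3 of 6 and 3 of 5 members and medians of -0.39 and -0.45. Their other genes had medians of -0.22 and -0.18. The largest falls were in Rpl37rt on chromosome 5 and Rps19bp1 on chromosome 15, both outside the core ribosome. Rpl37rt, a processed copy of Rpl37, was at 1176, 1349 and 1309 CPM in parental libraries and 737, 757 and 695 in DKO cells (log2 fold change -0.81 ± 0.124, limma adjusted p = 2.01e-05). Rpl37 itself changed by -0.68 (limma adjusted p = 9.33e-05), and reads of the pair may have been shared between them. Rps19bp1 was at 252, 297 and 286 CPM and 163, 161 and 163 CPM (log2 fold change -0.77 ± 0.117, limma adjusted p = 1.65e-05).

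Rps26 rose in MITF/TFE3 DKO cells, with no overlap of its libraries. Rps26, a Diamond-Blackfan anaemia gene whose protein lines the mRNA exit of the small subunit, was at 2917, 3174 and 2641 CPM in parental libraries and 3752, 3926 and 3187 in DKO cells (log2 fold change 0.31 ± 0.106, limma adjusted p = 0.0206). The 100 nearest genes of Rps26 on its chromosome had a median change of 0.31. The rise of Rps26 did not pass without parental replicate 3 or MITF/TFE3 DKO replicate 1 or 2, with limma adjusted p = 0.103, 0.0677 and 0.0928. The members that rose numbered 2 without parental replicate 1 or 2 and 1 without MITF/TFE3 DKO replicate 1. Under quantile normalization 13 rose and 17 fell.

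Falls were also frequent in the lines without both MITF and TFEB, at counts near that of MITF KO cells. In MITF/TFEB DKO cells, 62 of 83 genes fell and 0 rose, against 27.3% and 28.8% of all genes. In TKO cells, 59 fell and 2 rose, against 27.9% and 28.3% of all genes. The medians were -0.55 and -0.48, while those over all genes were 0.013 and 0.014. Adding the axis score gave 79 and 73 falls, and the medians were -0.54 and -0.52. Of the 17 members with under 50% of the coding end shared, 15 fell in MITF/TFEB DKO cells and 13 in TKO cells. Of the 83 genes, 37 had their lowest line mean in MITF/TFEB DKO cells, 22 in MITF KO cells and 15 in TKO cells. The highest line mean was in TFE3 KO cells for 40, the line with the highest mean axis score (0.47). The same counts over all genes are not given, so these cannot be read as particular to the members.

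Rpl22l1, the paralogue of Rpl22, had the largest fall in both lines. It was at 110.3, 108 and 115 CPM in the parental libraries, 22.4, 40.4 and 29.5 in MITF/TFEB DKO cells and 31.2, 34.8 and 33.2 in TKO cells, so that every library of both lines was below every parental one. The changes were -1.85 ± 0.170 (SE) and -1.72 ± 0.170 (limma adjusted p = 3.38e-09 and 1.13e-08), and the 100 nearest genes had medians of 0.40 and 0.39. Rpl22 itself, named after its values were seen, changed by -0.32 and -0.26 (limma adjusted p = 0.00168 and 0.00960). Rps29, a Diamond-Blackfan anaemia gene, was at 3272, 3454 and 3298 CPM in parental libraries and 1307, 1501 and 1349 in MITF/TFEB DKO cells (log2 fold change -1.27 ± 0.0984, limma adjusted p = 1.92e-10), with no overlap. Rpl37rt had the next largest fall in TKO cells, to 598, 585 and 502 CPM (log2 fold change -1.19 ± 0.124, limma adjusted p = 2.71e-08).

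Rpl39 and Rps26 were the 2 members that rose in TKO cells. Rpl39, which lines the exit tunnel of the large subunit, was at 237, 260.4 and 392 CPM in parental libraries and 461, 537 and 568 in TKO cells (log2 fold change 0.84 ± 0.354, limma adjusted p = 0.0467). Rps26 was at 3919.9, 3661 and 3816 CPM in TKO cells, above each parental library (log2 fold change 0.39 ± 0.106, limma adjusted p = 0.00338). The neighbours of Rpl39 on the X chromosome had a median of 0.60 and those of Rps26 of 0.35. The call on Rpl39 was lost without parental replicate 1 or 2 or any TKO replicate, each of which left 1 member that rose, and the edgeR test on recovered reads gave an adjusted p of 0.0562. Rps26 did not fall with the other genes in MITF/TFEB DKO cells either, where its change was 0.12 (limma adjusted p = 0.332).

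**Figure D4:**
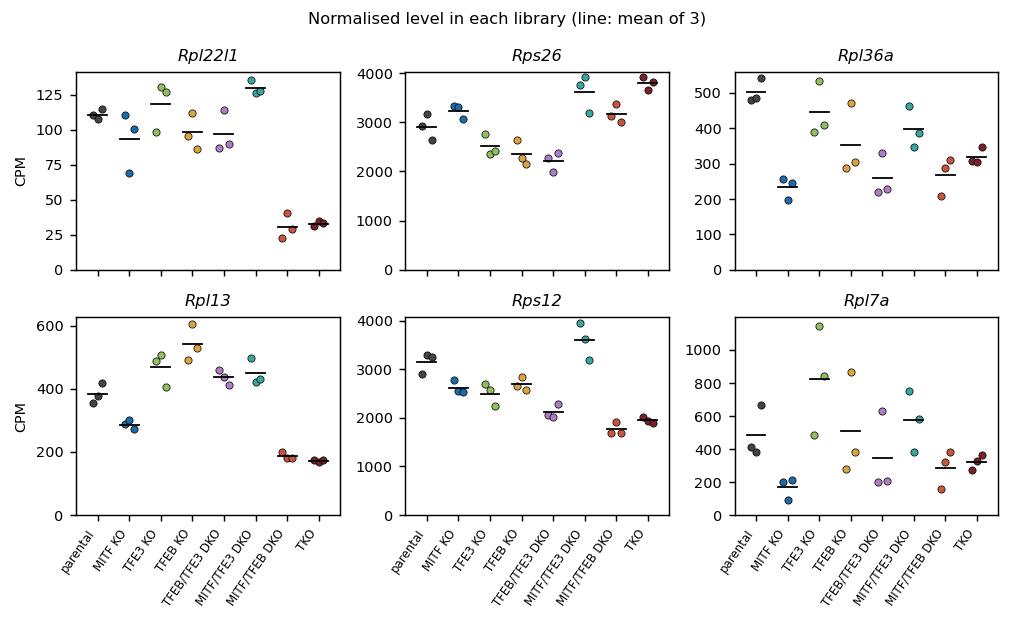
CPM of 6 named members in each of the 24 libraries (points, by line) with the mean of 3 as a line; every axis starts at 0. Rpl22l1 lies between 22.4 and 40.4 CPM in MITF/TFEB DKO cells, Rpl13 is low in MITF/TFEB DKO cells and TKO cells, and the 3 libraries of a line are wide apart for Rpl7a.

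Rpl15, Rps6 and Rpl32l, the members with the lowest levels, are described next. Rpl15, a Diamond-Blackfan anaemia gene of the large subunit, was at 12.7, 11.3 and 28.6 CPM in the parental libraries, 24.1, 124 and 52.4 in TFE3 KO cells and 81.1, 26.3 and 51.3 in MITF/TFE3 DKO cells. Those are the lines with its highest single changes, 1.69 ± 0.564 and 1.52 ± 0.564 on the log2 scale (limma adjusted p = 0.0523 and 0.0345), but the 3 libraries of each line were far apart and overlapped the parental range. With the axis score in the fit they were 0.81 and 1.07 (limma adjusted p = 0.00757 and 6.34e-05). Rps6, whose protein the S6 kinases phosphorylate downstream of mTORC1, was at 56.3, 57.5 and 63.6 CPM in parental libraries and 27.3, 30.6 and 36.4 in MITF/TFEB DKO cells (log2 fold change -0.90 ± 0.192, limma adjusted p = 0.000378). Rpl32l was at 17.9, 17.3 and 20.1 CPM in parental libraries and 9.06, 7.22 and 6.37 in MITF/TFEB DKO cells (log2 fold change -1.19 ± 0.163, limma adjusted p = 1.69e-06), and its libraries did not overlap.

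Rpl37 and Rpl32 stood at the other end of the range. Rpl37 was at 4323, 4768 and 4107 CPM in the parental libraries, 2062, 2097 and 1846 in MITF/TFEB DKO cells and 2217, 2102 and 2058 in TKO cells. Rpl32 was at 3449, 3707 and 4298 CPM, 1753, 1998 and 2006 CPM and 1903, 1927 and 1848 CPM in the same lines. All libraries of both lines were below the parental ones for these 2 genes. The changes were -1.14 and -1.05 for Rpl37 and -0.99 and -1.01 for Rpl32 (limma adjusted p = 3.68e-08, 1.18e-07, 2.03e-07 and 1.43e-07).

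Against MITF KO cells, falls outnumbered rises among these genes on further loss of TFEB, or of TFEB and TFE3 together. In MITF/TFEB DKO cells, 30 of 83 fell and 4 rose, against 23.9% and 25.1% of all genes, with a median of -0.10. In TKO cells, 29 fell and 11 rose, against 23.9% and 26.1%, with a median of -0.043. With the axis score in the fit the falls numbered 46 and 41 and the rises 3 and 5, with medians of -0.25 and -0.20. The rises in MITF/TFEB DKO cells numbered 2 without MITF KO replicate 2 or MITF/TFEB DKO replicate 2, 8 without MITF/TFEB DKO replicate 1 and 1 without MITF/TFEB DKO replicate 3. Those in TKO cells numbered 3 without MITF KO replicate 2, 7 without TKO replicate 2 and 6 without TKO replicate 3. Under quantile normalization 18 rose and 27 fell in TKO cells. Rpl22l1 was at 111, 69.1 and 100.4 CPM in MITF KO cells, and its changes from there were -1.58 and -1.44 (limma adjusted p = 6.35e-08 and 2.85e-07).

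Whether an effect depended on MITF was tested as an interaction, the change on losing a factor in MITF KO cells less the change in cells with MITF. For TFEB, 21 of 83 genes had a lower value without MITF and 2 a higher one, against 17.4% and 17.7% of all genes. Rpl22l1 and Rpl13 were the most negative, with differences of -1.40 and -1.11 on the log2 scale (limma adjusted p = 8.09e-05 and 5.70e-07). For TFE3, 16 had a higher value and 0 a lower one, against 10.2% and 10.0%. The medians over the 83 genes were -0.17 for TFEB and 0.26 for TFE3. With the axis score in the fit, 36 genes were lower for TFEB and 33 higher for TFE3. Without MITF/TFE3 DKO replicate 1, 10 were higher for TFE3. The 2 higher genes for TFEB became 8 without TFEB KO replicate 2, 5 without MITF/TFEB DKO replicate 1, and 1 without parental replicate 3, MITF KO replicate 2, TFEB KO replicate 1 or 3, or MITF/TFEB DKO replicate 2 or 3.

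Few members reached the study's own threshold of a fold change of at least 2 with an unadjusted p under 0.05. They numbered 5 of 83 in MITF KO cells, where 6.28% of all genes passed in either direction, 14 in MITF/TFEB DKO cells (13.7%) and 12 in TKO cells (14.7%), all of them falls. There were 1 in TFE3 KO cells (1.71% of all genes), 0 in TFEB KO cells (0.783%), 0 in TFEB/TFE3 DKO cells (0.958%) and 1 in MITF/TFE3 DKO cells (5.87%). The 1 member in each of TFE3 KO cells and MITF/TFE3 DKO cells was a rise. These shares of all genes count both directions, while the member changes in each line lay in 1 direction. They therefore do not show whether large falls were more frequent among members than among all genes. Calls without a fold limit were more frequent among members than among all genes in the 4 lines with lower shares of reads.

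The acidic stalk, formed by Rplp0, Rplp1 and Rplp2, recruits the factors that drive elongation. Rplp0 was at 1224, 1301 and 1328 CPM in the parental libraries, 986, 888 and 942 in MITF KO cells and 585, 667 and 639.8 in MITF/TFEB DKO cells (log2 fold change -1.03 ± 0.0937, limma adjusted p = 3.16e-09). Rplp1 was at 3983, 4701 and 4659 CPM, 3327, 3337 and 3406 CPM and 2979.5, 3438 and 3079 CPM in those lines (log2 fold change -0.49 ± 0.109, limma adjusted p = 0.000573). Rplp2 was at 3166, 3554 and 3310.3 CPM, 2519, 2452 and 2464 CPM and 2681, 2737 and 2563 CPM (log2 fold change -0.33 ± 0.0946, limma adjusted p = 0.00520). MITF KO cells and MITF/TFEB DKO libraries lay below the parental ones for all 3 genes. Under quantile normalization the changes in MITF/TFEB DKO cells were -0.15 for Rplp1 and 0.057 for Rplp2 (limma adjusted p = 0.403 and 0.437), so their falls depend on the scaling.

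Rpl5 and Rpl11 bind 5S ribosomal RNA and, when not built into ribosomes, the p53 regulator MDM2. Rpl5 was at 272, 279 and 329.7 CPM in the parental libraries, 212, 151 and 206 in MITF KO cells and 110.2, 152 and 157 in MITF/TFEB DKO cells (log2 fold change -1.08 ± 0.177, limma adjusted p = 1.93e-05). Rpl11 was at 1492, 1638 and 1581 CPM, 1260.0, 1129 and 1183 CPM and 1141, 1198 and 1098 CPM (log2 fold change -0.45 ± 0.0881, limma adjusted p = 0.000135). None of these libraries overlapped the parental ones. In MITF KO cells the changes were -0.64 and -0.40 (limma adjusted p = 0.00636 and 0.000978), and that of Rpl5 did not pass without MITF KO replicate 2 (-0.48, limma adjusted p = 0.0548).

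All 4 paralogues fell in both MITF/TFEB DKO cells and TKO cells. Rpl36al was at 255, 266 and 298 CPM in parental libraries and 127, 143 and 166 in MITF/TFEB DKO cells (log2 fold change -0.91 ± 0.160, limma adjusted p = 4.32e-05). Rpl7l1, whose protein acts in ribosome assembly, was at 154, 174 and 168 CPM and 122, 118 and 114 CPM (log2 fold change -0.48 ± 0.0665, limma adjusted p = 1.78e-06). Rps27l was at 166, 189.7 and 217 CPM there (log2 fold change -0.60 ± 0.164, limma adjusted p = 0.00329), and its change in TKO cells of -0.44 (limma adjusted p = 0.0270) did not pass without parental replicate 3 or TKO replicate 1 or 3 (limma adjusted p = 0.151, 0.0620 and 0.0864). None of the libraries overlapped the parental ones in MITF/TFEB DKO cells for these 3 genes.

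Mutations in several ribosomal protein genes cause Diamond-Blackfan anaemia, an inherited failure of red cell production. Of 17 such genes in the table, 13 fell in MITF KO cells, 6 in TFEB/TFE3 DKO cells, 4 in MITF/TFE3 DKO cells, 13 in MITF/TFEB DKO cells and 13 in TKO cells, and 2 rose in MITF/TFE3 DKO cells and 1 in TKO cells. Their medians in those lines were -0.52, -0.34, -0.075, -0.51 and -0.46, near those of all 83 genes. Of all genes, 17.8%, 4.09%, 21.7%, 27.3% and 27.9% fell in these lines, and the count in MITF/TFE3 DKO cells is near that share.

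Both subunits took part. In TFEB/TFE3 DKO cells 12 of 32 small subunit genes and 17 of 51 large subunit genes fell, with medians of -0.35 and -0.34. MITF/TFEB DKO cells had 23 and 39 falls, with medians of -0.53 and -0.62, and TKO cells 22 and 37, with medians of -0.42 and -0.52. In MITF/TFE3 DKO cells 9 small and 12 large subunit genes fell. Single members ranged from -1.85 to 0.47 in MITF/TFEB DKO cells, from -0.97 to 0.19 in TFEB/TFE3 DKO cells and from -0.54 to 0.50 in TFEB KO cells, where Rpl36a was lowest and Rpl13 highest. Rpl36a was at 287, 472 and 303 CPM in TFEB KO cells (limma adjusted p = 0.0991).

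Genes that act with ribosomal proteins were read from lists of the same pathway. Beside their counts stand the shares of all genes that fell, 17.8%, 27.3% and 27.9% in MITF KO cells, MITF/TFEB DKO cells and TKO cells, and that rose, 20.1%, 28.8% and 28.3%. Of 48 ribosome biogenesis factors, 31 fell and 0 rose in MITF KO cells, 25 fell and 1 rose in MITF/TFEB DKO cells and 28 fell and 1 rose in TKO cells, with medians of -0.44, -0.33 and -0.35. They included Fbl, the methyltransferase of ribosomal RNA, at -1.02 (limma adjusted p = 5.90e-09) in MITF KO cells, and Rrp1b, a nucleolar assembly factor, at -1.34 (limma adjusted p = 1.68e-09) in MITF/TFEB DKO cells. In TFEB/TFE3 DKO cells 9 of them fell and 0 rose, where 4.09% of all genes fell, and in MITF/TFE3 DKO cells 18 fell and 2 rose, where 21.7% fell. Of 14 genes of the RNA polymerase I machinery, 7 fell and 0 rose in MITF KO cells, 7 fell and 1 rose in MITF/TFEB DKO cells and 7 fell and 1 rose in TKO cells. Twistnb, a polymerase I subunit, was at -0.70 (limma adjusted p = 2.15e-07) in MITF KO cells.

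Of 20 translation factors and other mRNAs with a TOP motif, 7 fell and 1 rose in MITF KO cells, 10 fell and 0 rose in MITF/TFEB DKO cells and 10 fell and 0 rose in TKO cells. Npm1, a nucleolar chaperone, changed by -0.65 (limma adjusted p = 1.72e-06) in MITF KO cells and -1.55 (limma adjusted p = 3.65e-13) in MITF/TFEB DKO cells, while the elongation factor Eef2 rose in MITF/TFE3 DKO cells by 0.69 (limma adjusted p = 4.61e-05). Rack1 and Fau, ribosomal protein genes that the rule does not take, fell in MITF/TFEB DKO cells, with changes of -1.03 (limma adjusted p = 7.84e-11) and -0.89 (limma adjusted p = 1.24e-09). Of 20 regulators, 5 fell and 4 rose in MITF KO cells, 8 fell and 3 rose in MITF/TFEB DKO cells and 6 fell and 2 rose in TKO cells, in MITF KO cells and TKO cells counts near the share of all genes that fell (17.8% and 27.9%). Myc, which activates ribosomal protein genes, was low throughout, at 6.21, 6.68 and 6.61 CPM in parental libraries and 1.49, 2.52 and 1.63 in TKO cells, and changed by -1.40 (limma adjusted p = 6.72e-05). Its libraries did not overlap the parental ones in TKO cells. Mdm2 changed by 0.81 (limma adjusted p = 1.98e-08) in MITF/TFEB DKO cells.

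Other large complexes are set beside the same shares of all genes that fell, 17.8%, 27.3% and 27.9% in these 3 lines. Of 78 mitochondrial ribosomal protein genes, 28 fell and 3 rose in MITF KO cells, 48 fell and 4 rose in MITF/TFEB DKO cells and 44 fell and 8 rose in TKO cells, with medians of -0.20, -0.35 and -0.31. Of 37 proteasome subunit genes, 21 fell and 0 rose in MITF KO cells, 22 fell and 2 rose in MITF/TFEB DKO cells and 25 fell and 1 rose in TKO cells, with medians of -0.35, -0.36 and -0.37. In TFEB/TFE3 DKO cells, where 4.09% of all genes fell, 8 of 78 mitochondrial ribosomal protein genes and 4 of 37 proteasome genes fell. Their medians were -0.18 and -0.15. Of 7 melanocyte genes, 1 fell and 3 rose in MITF KO cells, 6 fell and 1 rose in MITF/TFEB DKO cells and 6 fell and 1 rose in TKO cells, and Tyr, the rate-limiting enzyme of melanin synthesis, was at 127, 133 and 134 CPM in parental libraries and 8.78, 7.66 and 8.60 in TKO cells. The part of such state differences in the ribosomal protein values was not tested.

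On mm39 (GENCODE annotation), Rpl22l1 at chr3:28859585-28861573, Rps29 at chr12:69204495-69205960, Rps26 at chr10:128460395-128462636, Rpl13 at chr8:123829069-123831992 and Rpl36a at chrX:133486372-133488901 are separate protein-coding genes, as given by their first and last annotated base. The reads lie at the end of the last exon and its untranslated region, since the kit primes on the poly(A) tail. Of the 50-base words at the coding end, 76.9% of those of Rpl22l1, 47.3% of those of Rps29, 80.1% of those of Rps26 and all of those of Rpl13 and Rpl36a occur elsewhere in the genome. These values do not describe the transcript end, where the reads lie and where fewer members share at least 50% of the words (34, against 64). An exon of Gm33051 lies over the 3′ end of Rpl22l1 on the opposite strand, and reads of the pair cannot be told apart if strand was not used.

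Position in the genome was checked because the lines are clones of a tumour line. Each member was set against the median of its 100 nearest non-member genes. In MITF KO cells the median member change was -0.46 after the neighbours were taken off, and 81 of 83 members lay below their neighbours. In TFEB/TFE3 DKO cells these values were -0.30 and 82, in MITF/TFEB DKO cells -0.63 and 81, in TKO cells -0.56 and 78, and in MITF/TFE3 DKO cells -0.053 and 50. Neighbour medians themselves ran from -0.47 to 0.48 in MITF/TFEB DKO cells. Across the 83 genes, which share libraries and are not independent, Spearman's rho between a member's change and its neighbours' median was 0.64 in that line and 0.35 in MITF KO cells. The part of position in these values was not tested.

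**Figure D5:**
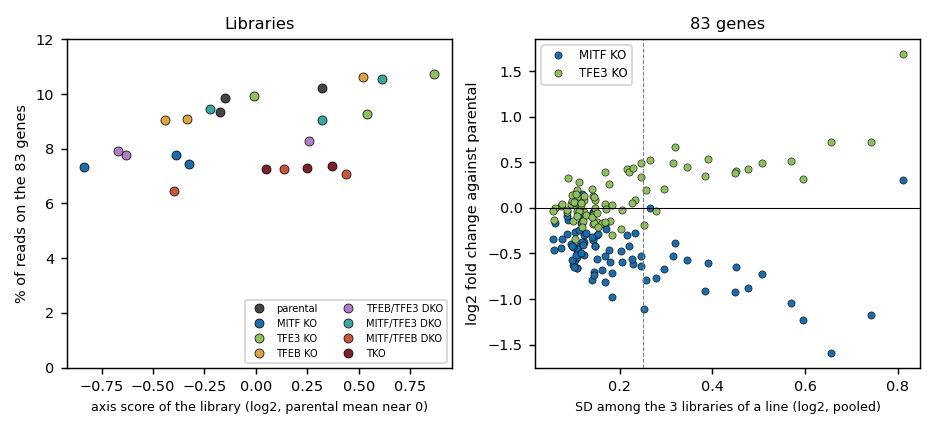
Left, percent of reads on the 83 genes against the axis score of each library (log2), coloured by line. Right, log2 fold change against the parental cells of each gene in MITF KO cells and TFE3 KO cells against its standard deviation between libraries of a line, with a dashed line at 0.25; most genes beyond it lie below 0 in MITF KO cells and above 0 in TFE3 KO cells.

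The members that vary most between libraries were set beside the others. Across the 83 genes Spearman's rho between a member's loading on the axis and its change was -0.53 in MITF KO cells, 0.75 in TFE3 KO cells and 0.29 in MITF/TFEB DKO cells, again across genes that share libraries. In MITF KO cells 50 of the 64 members with a standard deviation of at most 0.25 fell, with a median of -0.43, and 10 of the other 19 did, with a median of -0.77. In MITF/TFEB DKO cells 58 of the 64 fell and 4 of the 19, with medians of -0.63 and -0.38. The standard deviation used for the split also enters the error of each call. Fewer calls among the 19 are therefore partly built in.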

How the data were processed

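Messenger RNA of 24 libraries was read from the 3′ end (QuantSeq Forward). The authors trimmed reads with Trim Galore 0.6.5 and cutadapt 2.10 and mapped them to mm39 with STAR 2.7.8a, as the submitters' processing notes list, and deposited an edgeR table of TMM-scaled CPM, a signal that is never negative. The counting tool, annotation and gene filter are not given in the sources used here. By the value steps, 99.99% or more of each library's values came back within 0.1 of whole reads, and TMM factors recomputed from them ran from 0.925 to 1.07.

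Each comparison was a contrast of 1 limma 3.58.1 fit to all 12010 genes and 24 libraries, on log2(CPM + 1) with a variance trend and 16 residual degrees of freedom, a scale that understates changes of low genes. edgeR 4.0.16, R 4.3.3 and Python 3.11.15 were also used, and the steps were tested on simulated data. Positions of 11711 genes came from GENCODE on GRCm39, and promoters from RefSeq on GRCm38.p6.

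The members, gene lists and tests were chosen with earlier results of these data known. Members are named if highest or lowest in mean level, by the largest non-overlapping called changes of each line (2 rises and 2 falls), or as stalk, 5S RNA partners or paralogues, and at most 3 genes of each other list by size of change. Values of some genes so named are not reported here. Alternatives were edgeR on recovered reads, a pseudocount of 0.25 or 5, a minimum mean of 5 CPM, median-of-ratios and quantile scaling, a replicate block, each library left out, only the 6 libraries compared, members without paralogues, neighbouring genes taken off and, added later, the axis score.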

Additional observations from a re-analysis of the deposited data

Results flagged for a closer look

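Groups of 3 libraries were not tested for single libraries far from the rest. In the test of the difference itself, the effect of losing TFEB was lower without MITF for 21 of 83 genes and higher for 2. Of all genes, 17.4% were lower and 17.7% were higher in that test. The effect of losing TFE3 differed for 16 of 83 genes, all higher without MITF, while 10.2% of all genes were higher and 10.0% lower. A call in either test is therefore not particular to the members. Both differences use the MITF KO libraries, which had the lowest mean axis score of the 8 lines. In the fit with the axis score for TFE3, 33 members were higher and 1 was lower, and the shares of all genes in that fit are not given.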

How the results depend on the processing

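Of the recomputed counts of members, 331 stayed within 1.5 times the reported count and 73 did not, most of them counts below 10; of the medians, 207 moved by less than the spread between libraries and 7 by more. The lowest read number of a member in a library was 151, and no test set depth against the spread between libraries as the limit.

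Quantile normalization gave 2 members higher in MITF KO cells, 2 lower in TFE3 KO cells, 2 lower in TFEB KO cells, 18 lower in TFEB/TFE3 DKO cells, 13 higher in MITF/TFE3 DKO cells and 1 higher in MITF/TFEB DKO cells, with medians of 0.13 in MITF/TFE3 DKO cells, -0.35 in MITF/TFEB DKO cells and -0.32 in TKO cells. Against MITF KO cells it gave 2 lower in MITF/TFE3 DKO cells, 9 higher in MITF/TFEB DKO cells and 18 higher in TKO cells, and 6 higher with a median of -0.034 in the TFEB interaction. It turned Rplp2 to 0.057 in MITF/TFEB DKO cells and 0.052 in TKO cells. The cause was not tested.

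With only the 6 libraries compared, fewer libraries give the spread, and 0 rose and 0 fell in TFE3 KO cells, 0 rose in TFEB KO cells, 9 fell in TFEB/TFE3 DKO cells and 22 were higher in TKO cells than in MITF KO cells. edgeR on recovered reads gave 5 rises in TFE3 KO cells and 1 in TKO cells. A pseudocount of 5, or genes with a mean of at least 5 CPM, gave 1 member lower in MITF/TFE3 DKO cells than in MITF KO cells.

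The axis score, added after the data were seen, gave 1 rise in MITF KO cells, 6 rises and 6 falls in TFE3 KO cells, 2 and 3 in TFEB KO cells, 52 falls in TFEB/TFE3 DKO cells and 1 rise in MITF/TFEB DKO cells. Against MITF KO cells it gave 1 fall and a median of 0.21 in MITF/TFE3 DKO cells, 46 falls and -0.25 in MITF/TFEB DKO cells, and 5 rises and -0.20 in TKO cells. The interactions had 4 members higher and 36 lower for TFEB, and 33 higher and 1 lower for TFE3. Shares of all genes called in this fit are not given, so larger counts cannot be read as particular to the members.

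With each library left out, members called ran from 0 to 8 rises and 0 to 3 falls in TFE3 KO cells, 0 to 1 falls in TFEB KO cells, 6 to 35 falls in TFEB/TFE3 DKO cells, 1 to 4 rises in MITF/TFE3 DKO cells and 1 to 2 rises in TKO cells. Against MITF KO cells they ran from 0 to 1 falls in MITF/TFE3 DKO cells, 1 to 8 rises in MITF/TFEB DKO cells and 3 to 11 rises in TKO cells, and the interactions from 1 to 8 rises for TFEB and 10 to 20 for TFE3.

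The replicate numbers are shared between lines as numbers only, and deviations of same-numbered libraries correlated by 0.039 on average (from -0.78 to 0.83), against -0.022 for other numbers. With the replicate block, 61 members fell in MITF KO cells and 62 in MITF/TFEB DKO cells, and no count of members moved by over 1.5 times.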
